A study of Gallus gallus with 14 samples.

Results

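The potassium channel genes of the chick retina were taken as all rows of the deposited table whose gene symbol begins with KCN, which gave 84 of 18631 genes in 21 families. The values given here are those of 81 of them. Retinas came from White Leghorn chicks, wild type, labelled postnatal day 3. The 7 lens retinas (46, 47, 48, 51, 53, 54 and 55) came from eyes that wore a -10 D lens for 6 days, which induces myopia, and the 7 control retinas (57, 58, 59, 62, 63, 64 and 65) are labelled only as control. The age label is given as it stands, since after 6 days of lens wear day 3 cannot be the age of the lens retinas at collection. The comparison asks which retinal transcripts differ after lens-induced myopia. The values come from total RNA sequencing and are in CPM, the share of a library's reads on a gene scaled to a common total. Nothing in the labels ties each library to its own chick, so p-values rest only on the spread between these samples.

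Potassium channels let potassium leave or enter the cell and so set the resting potential, shape the light response and end depolarization. Voltage-gated alpha subunits (KCNA, KCNB, KCNC, KCND, KCNH and KCNQ) open on depolarization, and the silent subunits (KCNF, KCNG, KCNS and KCNV) form no channel alone but join KCNB subunits. Auxiliary subunits (KCNAB, KCNE, KCNIP, KCNMB and KCNRG) change the gating or traffic of their partners. Inward rectifiers (KCNJ) and tandem-pore leak channels (KCNK) work near rest, and KCNMA, KCNT, KCNU and KCNN channels respond to calcium, sodium or pH. In mammalian retina, KCNV2 serves the photoreceptor inner segment, and inward rectifiers of Müller glia clear potassium. KCNJ10, the best known of those glial channels, was not analysed here.

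The value of 1 read, taken from the steps among low values, put 1 CPM at 34.0 to 42.5 reads in lens libraries and 32.3 to 38.8 reads in control libraries. Cone, rod, bipolar, horizontal, amacrine, ganglion and Müller glia markers were all present. Of 7 pigment epithelium markers, 1 reached 1 CPM in at least 7 libraries, with summed levels of 2.01 to 6.72 CPM in lens and 3.42 to 6.15 CPM in control retinas. None of 7 choroid and sclera markers did, with sums of 0.221 to 1.86 CPM in lens and 0.508 to 1.34 CPM in control retinas. Transcripts of the female W chromosome were near absent in 2 lens libraries (48 and 55) and 1 control library (65). They summed to 2.20 to 4.56 CPM in those 3 libraries and to 616 to 721 CPM in the other 11.

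Of the 81 genes, 57 reached 1 CPM in at least 7 of 14 libraries and were tested, and 24 did not. CPM is not divided by transcript length, so a value ranks a gene against itself across retinas and not against other genes. Among the tested genes, 31 averaged under 10 CPM, 24 averaged 10 to 100 CPM and 2 averaged 100 CPM or more. Those 2 were the delayed rectifier KCNB2 and the large-conductance calcium-activated channel KCNMA1. Together with KCNH5 and KCNA6 they collected 47.3% of the reads on the 81 rows. All 10 silent subunits were tested, against 19 of 23 voltage-gated alpha subunits, 8 of 14 inward rectifiers, 8 of 13 tandem-pore channels, 8 of 14 auxiliary subunits, 3 of 4 large-conductance and sodium-activated channels and 1 of 3 small-conductance channels.

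The 24 untested genes averaged 0.0102 to 0.832 CPM over the 14 retinas. They included KCNA10, KCNC4, KCNH4 and KCNQ1 among alpha subunits and KCNJ1, KCNJ4, KCNJ8, KCNJ13, KCNJ15 and KCNJ16 among inward rectifiers. They also included KCNK4, KCNK15, KCNK16, KCNK17 and KCNK18, the auxiliary genes KCNE1, KCNE3, KCNE4, KCNIP3, KCNMB1 and KCNRG, and KCNN1, KCNN3 and KCNU1. KCNJ13, a channel of the pigment epithelium, had at most 0.188 CPM in lens and 0.226 CPM in control retinas. Of these genes, 10 were at 0 in at least 1 library. In a limma fit of 18603 genes with no filter on low values, none of the 24 passed (1.3% of all genes did), and 4 had an unadjusted p under 0.05 (12.1% of all genes did). The smallest adjusted p was that of the small-conductance channel KCNN1, at 0.0673. It averaged 0.50 CPM ± 0.101 in lens and 0.806 CPM ± 0.181 in control retinas (SD, n = 7 each), and 6 lens values lay below every control.

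**Figure D1:**
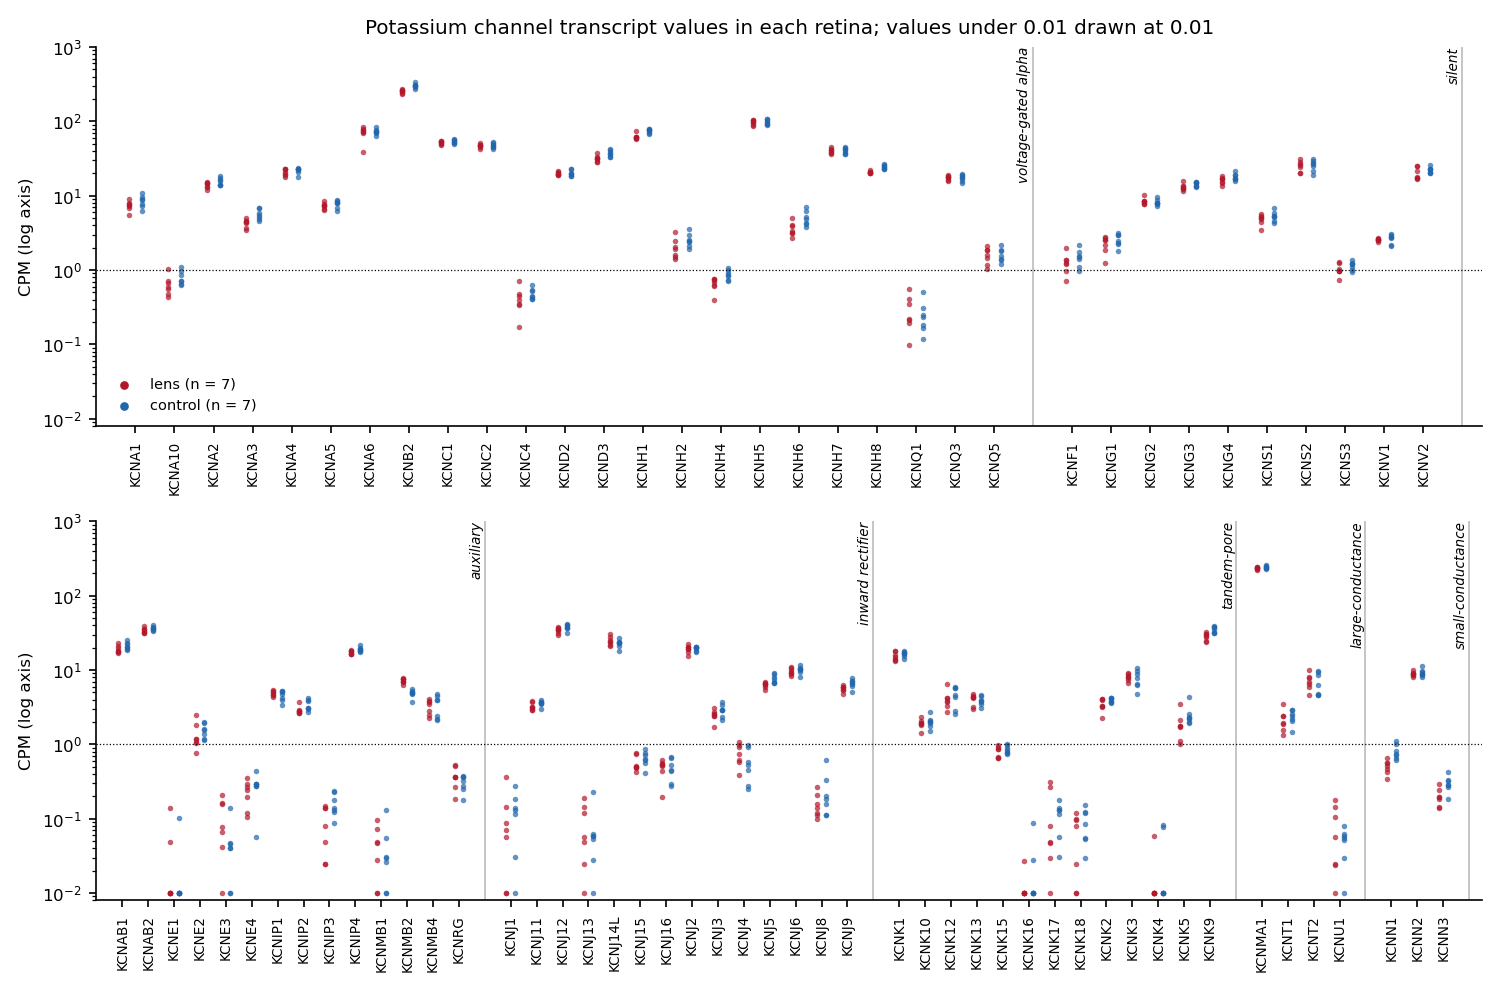
Each point is 1 retina (red, lens, left of each pair; blue, control), with CPM on a log axis and the 81 KCN genes grouped by class. The dotted line marks 1 CPM. The lowest values are drawn at a common floor. KCNB2 and KCNMA1 lie above the other rows. Red and blue points lie close together in most genes above 1 CPM and spread widely in low genes such as KCNJ1 and KCNK17.

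After 6 days of lens wear, 4 of the 57 tested potassium channel genes were lower than in control retinas and 1 was higher. They are said to have fallen or risen in that sense only, as there is no sample from before lens wear. Those that fell were KCNB2, the ether-a-go-go type channels KCNH1 and KCNH8 and the acid-sensitive leak channel KCNK9, each by 15% to 19.4% of the control mean. KCNMB2, an auxiliary subunit that makes large-conductance calcium-activated channels inactivate, rose by 47.1%. The call of KCNK9 was lost in 6 of 12 alternative settings, TMM (trimmed-mean) scaling among them, and in 7 of 14 fits without 1 library. KCNB2 and KCNH1 missed the threshold in the exact permutation test per gene, which called only genes whose groups did not overlap. These 5 calls are 8.77% of the tested members, where 2.76% of all 11132 tested genes were called (7.02% against 1.84% for lower, and 1.75% against 0.916% for higher). The test was limma on log2(CPM + 1) with Benjamini-Hochberg adjustment over all tested genes and a threshold of 0.05. At an unadjusted p under 0.05 there were 12 members (21.1%, against 16.1% of all genes). Of these, 11 were lower (19.3%, against 12.5% of all genes) and 1 was higher (1.75%, against 3.67%).

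Most tested members lay on the lower side in lens retinas. The log2 fold change was below 0 for 50 of 57 members (87.7%), against 65% of all tested genes, and the median was -0.11 in the members and -0.04 in all tested genes. All 19 voltage-gated alpha subunits tested were below 0, from -0.39 to -0.0026, and 14 of 19 were with TMM factors (not KCNC2, KCND2, KCNH5, KCNH7 and KCNQ3). The shares over all classes also depended on scaling. With TMM factors, 42 of 57 members (73.7%) and 50.3% of all tested genes were below 0, with medians of -0.07 and -0.00059. Under those factors 3 members were lower (5.26%, against 0.943% of all genes) and 1 was higher (1.75%, against 1.37%). CPM is scaled to a library's total, of which all listed genes held 32.6% ± 0.66 in lens and 33.4% ± 0.454 in control libraries (SD, n = 7 each). The part of that difference in the shares below 0 was not tested.

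**Figure D2:**
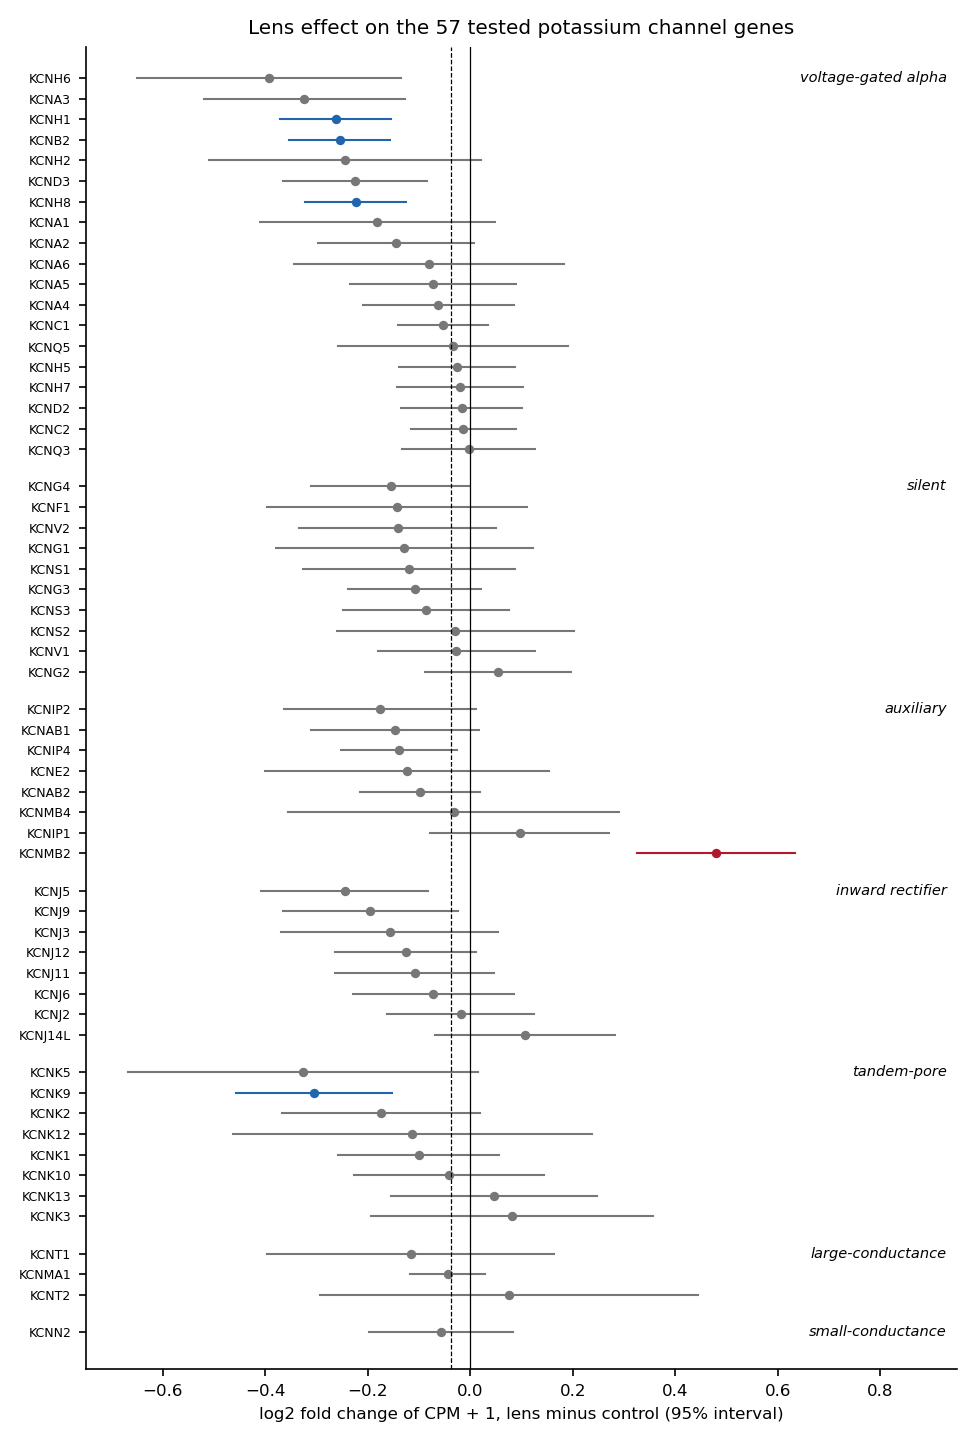
Points are log2 fold changes of CPM + 1 (lens minus control, 7 retinas each) with 95% intervals from limma for the 57 tested KCN genes, by class. Blue marks the 4 genes that fell, red the 1 that rose and grey the 52 that did not pass; the dashed line is the median of all tested genes, -0.04.

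KCNB2 encodes a delayed rectifier that repolarizes neurons. Its row (chromosome 2, 117417796 to 117612487, plus strand, build GRCg6a) had a lowest, median and highest value of 234, 255 and 269 CPM in lens retinas, against 269, 302 and 339.8 CPM in control retinas. Lens retina 48, at 269.2 CPM, lay just above the lowest control at 268.6 CPM, and the other 6 lay below every control. The log2 fold change was -0.25 ± 0.0468 (SE, adjusted p = 0.00461). Coordinates are as deposited, and a boundary can be off by 1 base.

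In the KCNH family, 2 of 6 tested genes fell and 4 did not pass, where 1.84% of all tested genes were called lower. KCNH1, an ether-a-go-go channel (chromosome 3, 22428252 to 22619732, plus strand), had 57.8, 61.8 and 73.0 CPM in lens retinas, against 68.1, 75.8 and 79.8 CPM in control retinas. Lens retina 46 was within the control range and the other 6 lay below it. The log2 fold change was -0.26 ± 0.0512 (SE, adjusted p = 0.0076). KCNH8, of the related ELK type (chromosome 2, 35491626 to 35658801, plus strand), had 19.9, 20.9 and 22.4 CPM in lens retinas, against 22.6, 24.4 and 26.7 CPM in control retinas. All 7 lens values lay below every control. The change was -0.22 ± 0.0465 in log2 (SE, adjusted p = 0.0121).

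KCNH5, the closest relative of KCNH1, had 86.6, 97.4 and 105 CPM in lens retinas, against 88.1, 99.2 and 108 CPM in control retinas. The groups overlapped almost fully, and the 95% interval of its log2 fold change was -0.14 to 0.09. KCNH7, an ERG-type channel, averaged 40.0 CPM ± 2.82 in lens and 40.7 CPM ± 3.59 in control retinas (SD, n = 7 each). Its relative KCNH6 had 2.71, 3.36 and 5.02 CPM in lens retinas, against 3.76, 4.92 and 7.05 CPM in control retinas. Of its lens values, 4 lay below every control, and the log2 fold change was -0.39 ± 0.122 (SE, adjusted p = 0.106). KCNH2 averaged 2.01 CPM ± 0.640 in lens and 2.54 CPM ± 0.554 in control retinas (SD, n = 7 each).

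**Figure D3:**
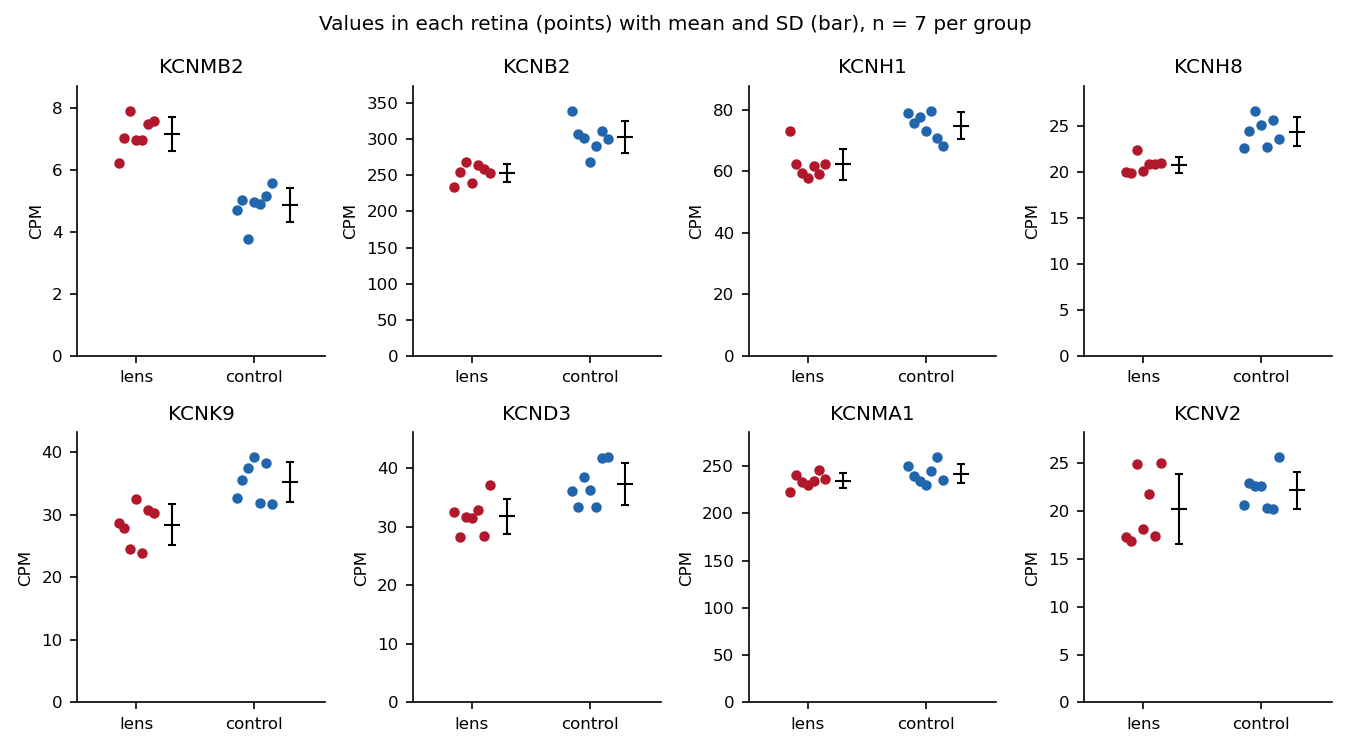
CPM in each of 7 lens (red, left) and 7 control (blue) retinas, with mean and SD as a black bar and all axes from 0. KCNMB2 is higher than every control in all 7 lens retinas and KCNH8 lower in all 7. KCNB2, KCNH1, KCNK9 and KCND3 (adjusted p = 0.0827, not called) are lower in 6, and KCNMA1 and KCNV2 overlap.

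Among the other voltage-gated alpha subunits, none of the 6 KCNA, 2 KCNC, 2 KCND and 2 KCNQ genes tested passed in limma. That test called 2.76% of all tested genes, so the lack of calls in so few genes says little about these families. At an unadjusted p under 0.05 there was 1 KCNA gene, 0 KCNC genes, 1 KCND gene and 0 KCNQ genes. Of all tested genes, 16.1% had such a p. The exact permutation test per gene called only genes whose groups did not overlap. It called 0 genes of these 4 families, where 0.97% of all genes were lower and 0.557% higher. KCNA3, a Shaker-type channel, had 3.45, 4.39 and 5.00 CPM in lens retinas, against 4.51, 5.41 and 6.90 CPM in control retinas, with 4 lens values below every control (log2 fold change -0.32 ± 0.0931 SE, adjusted p = 0.0748). KCND3, which carries the fast A-type current, had 28.3, 31.6 and 37.2 CPM in lens retinas, against 33.3, 36.2 and 41.9 CPM in control retinas. Of its lens values, 6 lay below every control (log2 fold change -0.22 ± 0.0664 SE, adjusted p = 0.0827). The other A-type gene, KCND2, averaged 20 CPM ± 0.866 in lens and 20.3 CPM ± 1.90 in control retinas (SD, n = 7 each).

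The fast-spiking channel genes KCNC1 and KCNC2 varied little. KCNC1 averaged 51.7 CPM ± 2.39 in lens and 53.7 CPM ± 2.72 in control retinas, and KCNC2 averaged 47.1 CPM ± 2.64 and 47.6 CPM ± 3.22 (SD, n = 7 each). KCNQ3, a subunit of the M-current that limits repetitive firing, averaged 17.4 CPM ± 1.08 in lens and 17.5 CPM ± 1.71 in control retinas (SD, n = 7 each). The 95% interval of its log2 fold change was -0.13 to 0.13. KCNQ5, of the same family, averaged 1.58 CPM ± 0.392 in lens and 1.63 CPM ± 0.341 in control retinas (SD, n = 7 each, adjusted p = 0.92). KCNA6 averaged 70.6 CPM ± 14.8 in lens and 73.2 CPM ± 6.5 in control retinas (SD, n = 7 each). Lens retina 51 alone measured 39.1 CPM, and the other 6 lens retinas measured 70.2 to 85.2 CPM.

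None of the 10 silent subunits passed in limma, where 2.76% of all tested genes were called. At that share, 10 genes without a call say little about the class. The groups overlapped for each, so the exact permutation test could call none. An unadjusted p under 0.05 was found for 1 (KCNG4), against 16.1% of all tested genes. KCNV2, whose loss in humans causes a cone dystrophy with an enlarged rod response, lies on chromosome Z (26605922 to 26611455, plus strand). It had 16.8, 18.1 and 25.0 CPM in lens retinas, against 20.2, 22.7 and 25.6 CPM in control retinas, and 4 lens values lay below every control (log2 fold change -0.14 ± 0.0914 SE, adjusted p = 0.481). Its 3 highest values, 24.9 to 25.6 CPM, were those of the 3 libraries without W-linked transcripts, and the other 11 libraries had 16.8 to 22.9 CPM. Chick females carry Z and W and males a pair of Z. With that class as a covariate the log2 fold change was -0.19 (adjusted p = 0.0869), and in the 11 libraries with W-linked transcripts alone it was -0.23 (adjusted p = 0.0944). KCNS2, whose product slows KCNB channels, had 20.1, 26.0 and 30.7 CPM in lens retinas, against 18.9, 26.9 and 31.0 CPM in control retinas. KCNG4 averaged 16.1 CPM ± 1.72 in lens and 18.1 CPM ± 1.90 in control retinas (SD, n = 7 each, adjusted p = 0.309).

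Large-conductance calcium-activated channels are built from the KCNMA1 pore subunit and KCNMB auxiliary subunits. KCNMB2 (chromosome 9, 17771718 to 17887912, minus strand) had 6.22, 7.02 and 7.92 CPM in lens retinas, against 3.76, 4.95 and 5.57 CPM in control retinas. All 7 lens retinas lay above every control. Its log2 fold change was 0.48 ± 0.0729 (SE, adjusted p = 0.000947), with the smallest p of the tested members. KCNMA1 had 223, 235 and 246 CPM in lens retinas, against 230.2, 239.5 and 259.7 CPM in control retinas, and 1 lens value lay below every control. It had the smallest coefficient of variation of the tested members, 3.96% over 14 retinas, and the 95% interval of its log2 fold change was -0.12 to 0.03. As a share of KCNMA1 CPM in the same library, KCNMB2 was 3.05% ± 0.197 in lens and 2.01% ± 0.237 in control retinas (SD, n = 7 each), a quantity chosen after the values were seen and not tested. KCNMB4, the neuronal auxiliary subunit, averaged 3.23 CPM ± 0.699 in lens and 3.40 CPM ± 1.12 in control retinas (SD, n = 7 each, adjusted p = 0.945).

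Of the other 6 tested auxiliary genes none passed in limma, where 2.76% of all tested genes were called. At that share, 6 genes without a call say little about the class. The groups overlapped for each, so none could pass in the exact permutation test per gene. An unadjusted p under 0.05 was found for 1 (KCNIP4), against 16.1% of all tested genes. KCNAB2, which binds KCNA channels, had 31.1, 33.9 and 39.5 CPM in lens retinas, against 33.8, 36.6 and 40.9 CPM in control retinas (adjusted p = 0.403). Its row overlaps CHD5 on the other strand (15.3 CPM in lens and 17.0 CPM in control retinas). KCNIP4, a calcium sensor that binds KCND channels, had 16.2, 17.4 and 18.8 CPM in lens retinas, against 17.6, 18.7 and 22.0 CPM in control retinas. Of its lens values, 4 lay below every control (log2 fold change -0.14 ± 0.0537 SE, adjusted p = 0.20), and its row overlaps PACRGL on the other strand. KCNIP1 was the other auxiliary gene with a fold change above 0, at 4.89 CPM ± 0.371 in lens and 4.54 CPM ± 0.703 in control retinas (SD, n = 7 each, adjusted p = 0.62).

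None of the 8 tested inward rectifiers passed in limma, where 2.76% of all tested genes were called. At that share, 8 genes without a call say little about the class. The groups overlapped for each, so none could pass in the exact permutation test per gene. An unadjusted p under 0.05 was found for 2 (KCNJ5 and KCNJ9), against 16.1% of all tested genes. KCNJ5, a subunit of channels opened by G proteins, had 5.35, 6.48 and 6.88 CPM in lens retinas, against 6.62, 7.48 and 9.05 CPM in control retinas. Of its lens values, 5 lay below every control (log2 fold change -0.24 ± 0.0774 SE, adjusted p = 0.112). KCNJ9 averaged 5.62 CPM ± 0.503 in lens and 6.61 CPM ± 0.896 in control retinas (SD, n = 7 each, adjusted p = 0.24). Each of these rows overlaps a row on the other strand with more reads, ARHGAP32 for KCNJ5 (24.4 CPM in lens and 28.6 CPM in control retinas) and MPP3 for KCNJ9 (32.4 and 36.4 CPM). How strand was handled in counting is not given in the sources used here, which makes both values uncertain.

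The strong rectifiers KCNJ2 and KCNJ12 both overlapped between groups. KCNJ2 had 15.5, 19.4 and 22.4 CPM in lens retinas, against 17.4, 20.03 and 20.3 CPM in control retinas, and its row overlaps KCNJ16 on the same strand. KCNJ12 had 29.7, 34.8 and 38.2 CPM in lens retinas, against 31.1, 37.4 and 41.1 CPM in control retinas (adjusted p = 0.353). KCNJ14L was the inward rectifier row with a fold change above 0, at 24.8 CPM ± 3.24 in lens and 23.0 CPM ± 2.64 in control retinas (SD, n = 7 each, adjusted p = 0.58).

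Of 8 tested tandem-pore channels 1 fell and 7 did not pass, where 1.84% of all tested genes were called lower. KCNK9, an acid-sensitive leak channel (chromosome 2, 145003863 to 145093802, minus strand), had 23.9, 28.8 and 32.6 CPM in lens retinas, against 31.7, 35.6 and 39.3 CPM in control retinas. All but lens retina 51 lay below every control, and the log2 fold change was -0.30 ± 0.072 (SE, adjusted p = 0.0278). It did not pass under TMM scaling (adjusted p = 0.0593), under median-of-ratios, common-sum or quantile scaling, without a filter on low values or in the exact permutation test. Leaving out lens retina 47, 48 or 53 or control retina 58, 59, 62 or 64 also ended the call (adjusted p from 0.0535 to 0.0612), and over all alternatives the adjusted p was 0.0179 to 0.0649. The related acid-sensitive channel KCNK3 averaged 8.05 CPM ± 0.866 in lens and 7.75 CPM ± 2.12 in control retinas (SD, n = 7 each, adjusted p = 0.821). KCNK5, opened by alkaline pH, had 1.01, 1.78 and 3.51 CPM in lens retinas, against 1.96, 2.29 and 4.39 CPM in control retinas, with 5 lens values below every control (adjusted p = 0.336). The stretch-sensitive KCNK2 averaged 3.43 CPM ± 0.655 in lens and 3.95 CPM ± 0.258 in control retinas (SD, n = 7 each, adjusted p = 0.365).

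The remaining calcium- and sodium-activated genes did not pass in limma, where 2.76% of all tested genes were called. KCNN2, the small-conductance channel on chromosome Z, had 8.18, 8.85 and 9.91 CPM in lens retinas, against 8.17, 8.76 and 11.3 CPM in control retinas. The 3 libraries without W-linked transcripts had 8.53 to 11.3 CPM (median 9.91), and the other 11 had 8.17 to 9.80 CPM (median 8.76). The sodium-activated channels averaged 2.13 CPM ± 0.70 in lens and 2.36 CPM ± 0.514 in control retinas for KCNT1, and 7.11 CPM ± 1.77 and 6.84 CPM ± 2.34 for KCNT2 (SD, n = 7 each). KCNT2 spread widely within each group, from 4.62 to 10.1 CPM in lens and from 4.61 to 9.77 CPM in control retinas, and its row overlaps another with more reads on the other strand.

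Summed over the 81 genes, KCN reads came to 1335 to 1449 CPM in lens retinas and 1467 to 1561 CPM in control retinas, with means of 1391 ± 36.9 and 1512 ± 30.5 (SD, n = 7 each). The highest lens retina lay below the lowest control retina. As a share of the listed genes, which does not depend on the total used for scaling, the sums were 0.426% ± 0.0101 in lens and 0.453% ± 0.00402 in control retinas (SD, n = 7 each) and did not overlap either. With TMM factors they were 1356 to 1459 CPM in lens and 1438.5 to 1526 CPM in control retinas and overlapped. Without the 5 called genes the sums were 978 to 1074 CPM in lens and 1041 to 1109 CPM in control retinas and overlapped. Their means were 1019 ± 31.9 and 1069 ± 22.9 (SD, n = 7 each), still lower in lens retinas. The 5 genes were called for their group difference in these same retinas, so a smaller gap without them was built in. It does not show that the shift is confined to them. These sums describe the list and were not tested.

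Marker sums of several neuron types also had lower means in lens retinas. The 5 amacrine markers summed to 384 to 426 CPM in lens and 428 to 467 CPM in control retinas, which did not overlap. Most of the mean amacrine sum was GAD1, at 302 CPM in lens and 326 CPM in control retinas. With TMM factors these sums overlapped, at 382 to 426 CPM in lens and 419 to 459.7 CPM in control retinas. The 4 rod markers summed to 186 to 267.1 CPM in lens and 267.0 to 349.9 CPM in control retinas, which overlapped narrowly. They differed in the size of their shift, from GNAT1 (mean 19.2 CPM in lens and 19.7 CPM in control retinas) to NR2E3 (1.07 and 2.57 CPM). With TMM factors the rod sums were 194 to 277 CPM in lens and 262 to 344 CPM in control retinas and overlapped more. The 5 ganglion cell markers summed to 121 to 159 CPM in lens and 143 to 176 CPM in control retinas and overlapped. The 4 bipolar cell markers analysed here summed to 325 to 371 CPM in lens and 355 to 399 CPM in control retinas and overlapped. Cone marker sums overlapped too, at 671 to 1030.1 CPM in lens and 703 to 899 CPM in control retinas. So did horizontal cell sums, at 39.9 to 52.8 CPM in lens and 40.0 to 60.5 CPM in control retinas. Most of the mean horizontal sum was CALB1, at 43.2 CPM in lens and 42.6 CPM in control retinas. The low markers ONECUT1 (1.75 CPM in lens and 2.32 CPM in control retinas) and LHX1 (1.74 and 2.43 CPM) had lower means in lens retinas. A sum therefore mostly follows its highest markers. The 4 cone markers did not move alike. In limma, ARR3 fell (184 CPM ± 29.6 in lens and 270.0 CPM ± 35.9 in control retinas, adjusted p = 0.00352), as did PDE6C (196 CPM ± 13.9 in lens and 244 CPM ± 17.2 in control retinas, adjusted p = 0.00225), with SD and n = 7 each. OPN1LW, the red opsin, rose (224 CPM ± 68.7 in lens and 133 CPM ± 26.5 in control retinas, SD, n = 7 each, adjusted p = 0.0176), and GNAT2 did not pass. The 4 Müller glia markers overlapped, at 780.5 to 1058 CPM in lens and 830.2 to 994 CPM in control retinas. The part of these shifts in the potassium channel values was not tested. In whole retina, fewer cells of a type and less RNA per cell cannot be told apart.

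**Figure D4:**
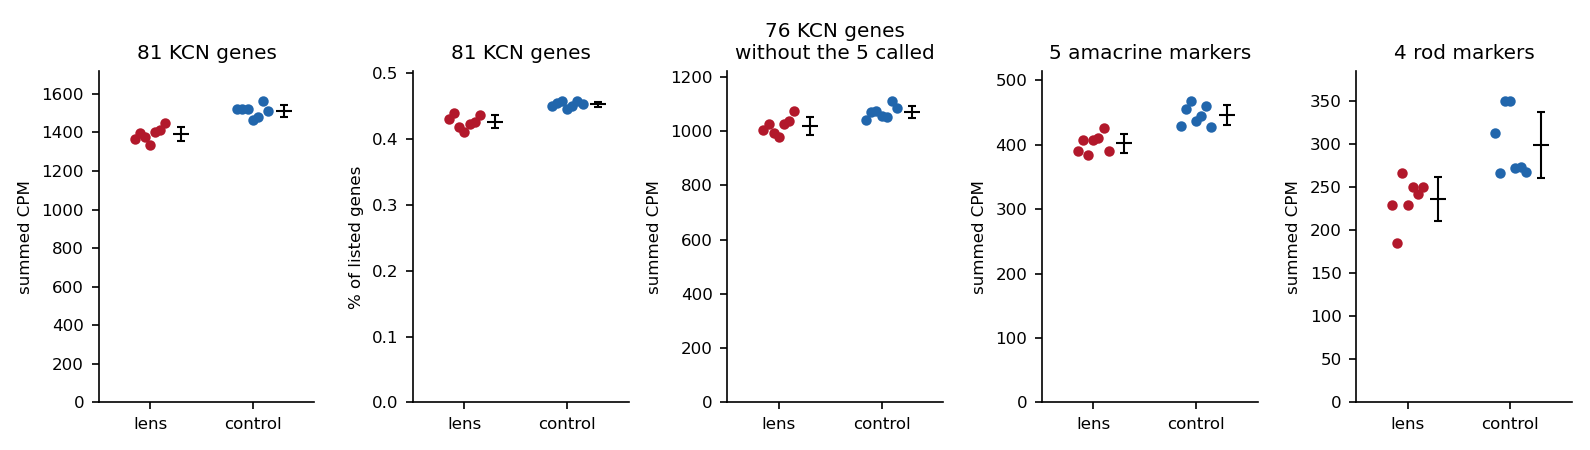
Summed values in each of 7 lens (red, left) and 7 control (blue) retinas with mean and SD, all axes from 0. The sums over 81 KCN genes are lower in all 7 lens retinas on both scales. Those over the 76 genes left without the 5 called ones overlap, a smaller gap that is built in by leaving out called genes. The amacrine marker sums lie at 384 to 426 CPM in lens and 428 to 467 CPM in control retinas. The highest lens rod marker sum meets the lowest control one near 267 CPM.

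A ratio within a library compares subunits almost without regard to scaling. It was tested as a difference of log2(CPM + 1) values, in which the added 1 leaves a small dependence on scale. The test was an exact two-sided permutation over 3432 assignments, with adjustment over the 3 ratios computed. The plain CPM ratio of KCNH1 to KCNH5 was 0.647 ± 0.0694 in lens and 0.765 ± 0.0911 in control retinas (SD, n = 7 each). The tested difference was -0.24 in log2 (exact permutation p = 0.0239, adjusted p = 0.0717). That difference did not pass, and it passed in only 2 of the 14 fits that left out 1 library. These were the fits without lens retina 46 (-0.28, exact permutation adjusted p = 0.035) and without control retina 64 (-0.27, exact permutation adjusted p = 0.0367). In the rest it did not pass, with an exact permutation adjusted p of up to 0.143 (without control retina 57).

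Genes that work with these channels under other names were counted in the same way. Of 21 partner genes (auxiliary subunits, tethers and scaffolds), 17 had values here and 16 were tested. Of the 16, 0 passed in limma, where 2.76% of all tested genes were called, and 0 with TMM factors or exact permutation. At that share, 0 calls in 16 genes say little about the list. An unadjusted p under 0.05 was found for 2 of the 16, against 16.1% of all tested genes. Their median log2 fold change was -0.04. DLG2, a scaffold of KCNA channels, averaged 567 CPM ± 26.9 in lens and 584 CPM ± 36.1 in control retinas (SD, n = 7 each, adjusted p = 0.708). ADAM22, found with KCNA channels at axons, averaged 155 CPM ± 5.36 in lens and 159.6 CPM ± 2.96 in control retinas (SD, n = 7 each, adjusted p = 0.538). Of 14 pump and cotransporter genes, 10 had values here and 6 were tested. Of the 6, 0 passed in limma, where 2.76% of all tested genes were called, and 0 with TMM factors or exact permutation. At that share, 0 calls in a list this short say little about it. An unadjusted p under 0.05 was found for 3 of the 6, against 16.1% of all tested genes. These went in different directions, with log2 fold changes of -0.11 for ATP1B1, -0.22 for SLC12A5 and 0.16 for SLC12A2. SLC12A7, a potassium and chloride cotransporter, averaged 183 CPM ± 11.1 in lens and 172 CPM ± 8.79 in control retinas (SD, n = 7 each, adjusted p = 0.324). The sodium pump beta subunit ATP1B3 averaged 110.3 CPM ± 5.16 in lens and 115 CPM ± 5.98 in control retinas (SD, n = 7 each, adjusted p = 0.559).

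KCNH8 passed in all 26 alternative fits, and KCNMB2 passed in the 25 that held it. With TMM factors KCNH8 and KCNH1 passed narrowly in limma (adjusted p = 0.0487 and 0.0443), against 0.0219 for KCNB2 and 0.000404 for KCNMB2. KCNB2 and KCNH1 passed in 25 of 26 and missed in the exact permutation test (exact permutation adjusted p = 0.0519 and 0.0649). That test called 1 member lower (KCNH8, where 0.97% of all genes were lower) and 1 higher (KCNMB2, where 0.557% were higher), the 2 whose groups did not overlap. With the W-linked class as a covariate KCND3 (adjusted p = 0.0235) and KCNH6 (adjusted p = 0.0333) were lower as well, which gave 6 lower members (10.5%) and 1 higher, where 2.58% of all genes were lower and 1.15% higher. Without lens retina 55 the same 2 genes joined (adjusted p = 0.0258 for KCND3 and 0.0357 for KCNH6), where 2.91% of all genes were lower and 0.988% higher. Without control retina 58 KCNA3 passed as lower in limma (adjusted p = 0.0482), where 159 of all 11132 genes were lower.

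**Figure D5:**
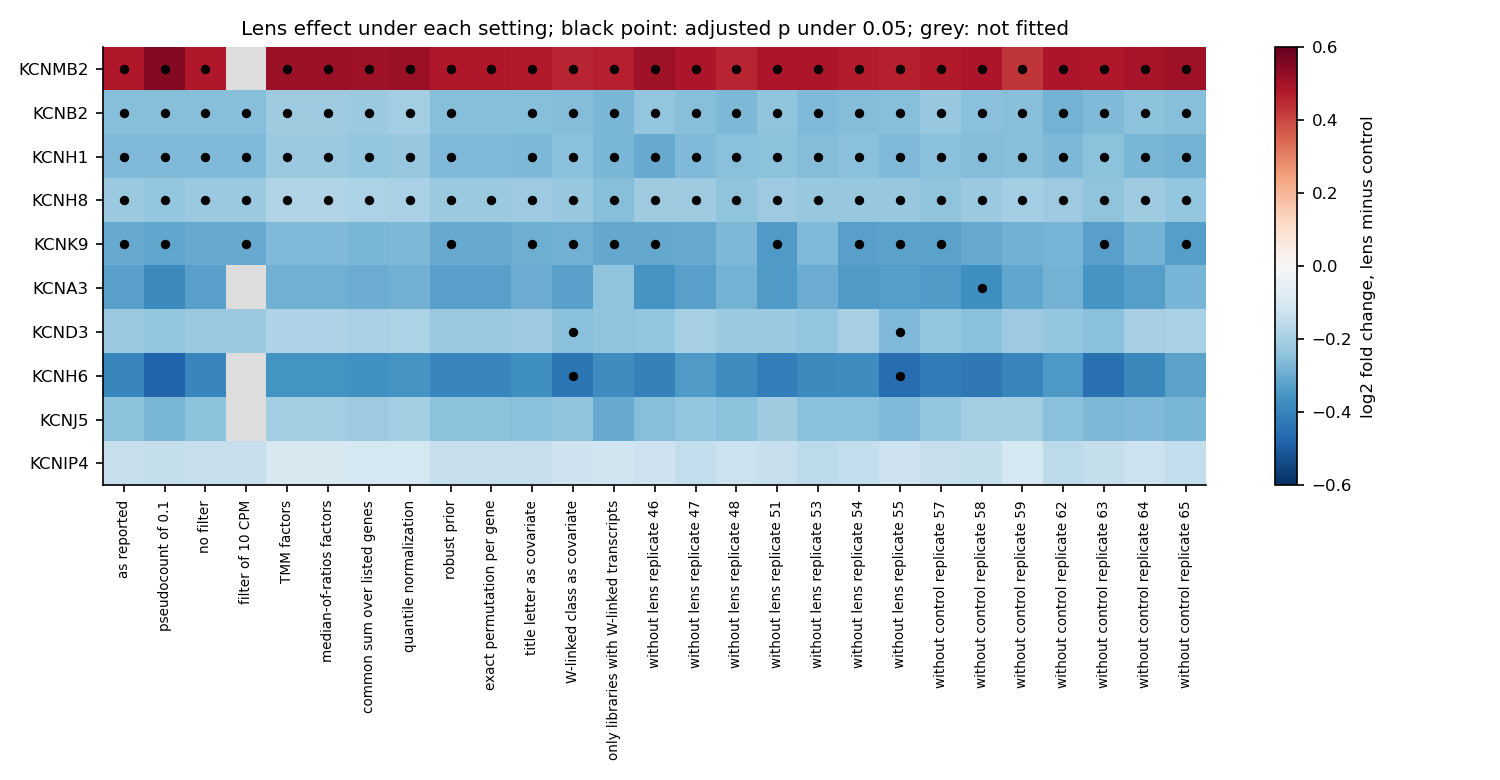
Log2 fold change (colour, lens minus control) of the 10 members with the smallest p, under each setting; a black point marks an adjusted p under 0.05 and grey a gene left out by the filter. The upper 4 genes keep their points almost throughout, KCNK9 loses about as many as it keeps, and KCND3 and KCNH6 gain one with the W-linked class as a covariate and without lens retina 55.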

How the data were processed

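The authors deposited CPM values, normalized to each library's total, in 1 table of 14 libraries. Per the labels' protocols, total RNA came from a column kit, and libraries kept strand and were depleted of ribosomal RNA. Per the submitters' processing notes, STAR, Partek and build GRCg6a were used. The way reads were counted per gene is not stated in these sources. The table held 0.0001 added to every entry, which was subtracted. No count model was used because the deposited values are normalized. Depth was taken as the library total that put the most low values at whole reads. At that total, 93.1% to 94.2% of low values lay within 0.02 of a whole read, a share that the choice itself maximised. Intervals are those of the difference between group means and rest on the spread between samples.

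Values were transformed as log2(CPM + 1), and a fold change on that scale understates changes of low genes. The filter was 1 CPM or more in 7 or more of 14 samples. limma (version 3.58.1, under R version 4.3.3) was run with a trend on mean level and without robust prior. P-values were adjusted by Benjamini-Hochberg over all 11132 genes. The code of the fit was checked on simulated reads, with 1 setting of extra spread shared by all genes and no W-linked classes. That is simpler than these data, so the check does not show how often calls here are wrong. Groups come from the sample titles and share no replicate number. Chromosome names come from the RefSeq gene table of GRCg7b, in which 78 of 81 symbols matched, and no coordinates were taken from it.

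Every gene that passed the filter entered the fits. Values of 3 of the 84 rows, and results that need them or 1 gene of the pump list, are not reported here, and counts of members leave them out. The members, lists and ratios were chosen with earlier results of these data known. Genes given with sample values are those past the threshold, the 10 smallest p, the highest mean CPM of each class, and KCNB2, KCNV2, KCNH1, KCNH5, KCNJ2, KCNMA1 and KCNK5. Lists of partners and of pumps are given by counts, by members past the threshold and by the highest 2 in mean CPM. Other named genes were picked after their values were seen. Alternatives were a pseudocount of 0.1, no filter, a filter of 10 CPM, TMM, median-of-ratios, common-sum and quantile scaling, a robust prior, exact permutation per gene, covariates for the unexplained title letter (L or R) and for W-linked transcripts, and leaving out each library. A fit on the 11 libraries with W-linked transcripts was added after seeing the data. None of the 6 blood markers chosen was analysed here. Figures were drawn with matplotlib version 3.10.9.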

Additional observations from a re-analysis of the deposited data

Results flagged for a closer look

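Within groups of 7 retinas, 1 value stood far from the other 6 in 8 of 114 groups checked (57 tested members, each group of retinas on its own), by Dixon's criterion. Chance flags about 1 group in 20.

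KCNA6 measured 39.1 CPM in lens retina 51, against 70.2 to 85.2 CPM in the other lens retinas. Its neighbours on chromosome 1, KCNA1 and KCNA5, lay within the range of the other lens retinas there. KCNG2 was high in the same retina, at 10.2 CPM, against 7.72 to 8.61 CPM. KCNH1 measured 73.0 CPM in lens retina 46, against 57.8 to 62.4 CPM in the others. Lens retina 48 was high for KCNH8, at 22.4 CPM against 19.9 to 21.0 CPM, and low for KCNK2, at 2.23 CPM against 3.17 to 4.07 CPM. KCNIP2 measured 3.72 CPM in lens retina 55, against 2.63 to 2.87 CPM, and its row overlaps another on the same strand. In control retinas, KCNJ12 measured 31.1 CPM in retina 63, against 36.9 to 41.1 CPM, and KCNK5 measured 4.39 CPM in retina 58, against 1.96 to 2.55 CPM.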

How the results depend on the processing

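The count of lower members was 4, where 205 of all 11132 tested genes were lower. It was 3 to 6 over the 14 fits that left out 1 library, where 146 to 324 of all 11132 genes were lower. The count of lower members was 1 in the exact permutation test, where 0.97% of all genes were lower. That test called only members whose groups do not overlap. The count of higher members was 1 in each fit that left out 1 library, where 83 to 110 of all 11132 genes were higher. It was 0 with a filter of 10 CPM, which removes KCNMB2, where 103 of 5706 genes were higher. No partner, pump or cotransporter passed in limma with TMM factors or without any 1 library. With TMM factors 0.943% of all genes were lower and 1.37% higher. The log2 difference in the ratio of KCNH1 to KCNH5 ranged from -0.28 to -0.20 without 1 library, and passed in 2 of the 14 fits.

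Members near 0 changed sign and stayed far from the threshold. With TMM factors, median-of-ratios factors and a common sum, KCNS2 was 0.012, 0.012 and 0.0032, KCNH5 was 0.016, 0.016 and 0.0069, and KCNJ2 was 0.022, 0.022 and 0.013. With quantile normalization KCNH5 was 0.0060 and KCNJ2 0.016. In libraries with W-linked transcripts KCNS2 was 0.049. Without 1 library KCNS2 ranged from -0.097 to 0.021 and KCNJ2 from -0.055 to 0.029. The causes were not tested. No paired analysis was possible because the groups share no replicate number. Values under 1 CPM rest on few reads, at 32.3 to 42.5 reads per CPM.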
